A study of Mus musculus with 7 samples.

Results

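The spliceosome and splicing factor genes were followed in single mature mouse eggs (MII oocytes, halted in the second meiotic metaphase). Members were chosen by symbol: every gene whose name starts with Snrp (Snrpn left out), Srsf, Sf3a, Sf3b, Prpf or U2af, together with Lsm1 to Lsm8. The rule found 57 of the 37620 genes in the table, namely 7 Sm core genes, 4 other snRNP genes, 8 Lsm, 3 U2af, 3 Sf3a, 6 Sf3b, 13 Prpf and 11 Srsf genes, and 2 Snrp pseudogenes. The 3 control oocytes (WT1, WT2 and WT4) had the genotype Hiraf/f, with floxed alleles of the H3.3 chaperone gene Hira. This genotype names no Cre, though the titles of WT and KO samples alike carry the tag Zp3-Cre. No library numbered WT3 is among the samples. The 4 knockout oocytes (KO1 to KO4) were Hiraf/f, Zp3-Cre. The floxed alleles are thus common to both groups, and Cre is driven by the promoter of Zp3, a zona pellucida gene that is active in growing oocytes. Age, strain and animal of origin are not given. The comparison asks how transcript levels in the mature oocyte differ when Hira is deleted during oocyte growth.

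The spliceosome removes introns from precursor mRNA. Its small nuclear ribonucleoproteins (snRNPs) each hold a small RNA inside a ring of Sm proteins, or, in the case of U6, of Lsm proteins. U1 marks the 5′ splice site, the U2AF heterodimer binds the 3′ splice site, the SF3A and SF3B complexes join U2 to the branch point, and proteins of the PRPF family build and remodel the U4/U6.U5 complex that carries out the reaction. SR proteins, encoded by the Srsf genes, bind exons and help choose splice sites. A fully grown oocyte is transcriptionally silent and stores mRNA for the embryo, so the levels below are those of stored transcripts.

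Each library was made from the RNA of 1 oocyte, copied into cDNA and amplified, and the deposited values are FPKM (fragments per kilobase of gene, scaled to library depth). Reads in genes, taken as the smallest whole numbers that stand in the ratio of a gene's FPKM values, ranged from 15340782 to 25940519 per oocyte. Hira itself had 35 to 55 reads in each WT and 5 to 17 in each KO oocyte. These totals cover the whole gene, deleted exons and others alike. All 12 oocyte markers examined were above 0 in every library, the lowest at 21.8 FPKM. Their summed level was 20140.5 to 21536.7 FPKM in WT and 13121.9 to 15667.7 in KO oocytes, without overlap. Of 20 markers of the surrounding granulosa and cumulus cells, 18 averaged under 1 FPKM in both genotypes. Fshr and Kitl averaged at least 1 FPKM over the 7 libraries. At 0 in every library were 7 markers (Amh, Foxl2, Lhcgr, Tnfaip6, Areg, Ereg and Krt18). The cumulus and granulosa sum was 3.48 to 4.90 FPKM in WT and 7.997 to 10.9 in KO oocytes, and the part of either sum in the differences below was not tested. The labels tie no oocyte to an animal. Each genotype therefore counts as 1 sample and no test is given. "Higher" and "lower" describe these 7 libraries, ± is the SD between oocytes (n = 3 WT and n = 4 KO), so the error shown is that between single cells.

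Of the 57 genes, 44 reached 1 FPKM in 3 or more libraries. For these, WT means of log2(FPKM + 1) were subtracted from KO means. Over 1.5-fold higher in KO were 7 genes (15.9%), beside 22.6% of the 8033 genes above that filter. None was over 1.5-fold lower, beside 7.92% of all genes. The median difference was 0.08 over the 44 genes and 0.18 over all genes. After median-ratio scaling, under which the all-gene median was -0.01 in place of 0.18, the median of the splicing genes was -0.14, 5 of 43 genes were over 1.5-fold higher (14.7% of all genes) and 2 lower (14.2% of all genes). The 4 KO values all exceeded the 3 WT values for 8 members (18.9% of all genes), and all lay below them for 2 (8.94% of all genes). Snrpc and Srsf9 are in both counts of higher members. Their WT values were all under 1 FPKM, so they passed the filter through KO oocytes alone, and their separation is no result apart from the filter. The 57 genes together made up 0.785% to 0.853% of summed FPKM in WT and 0.787% to 0.879% in KO oocytes, which overlapped.

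**Figure D1:**
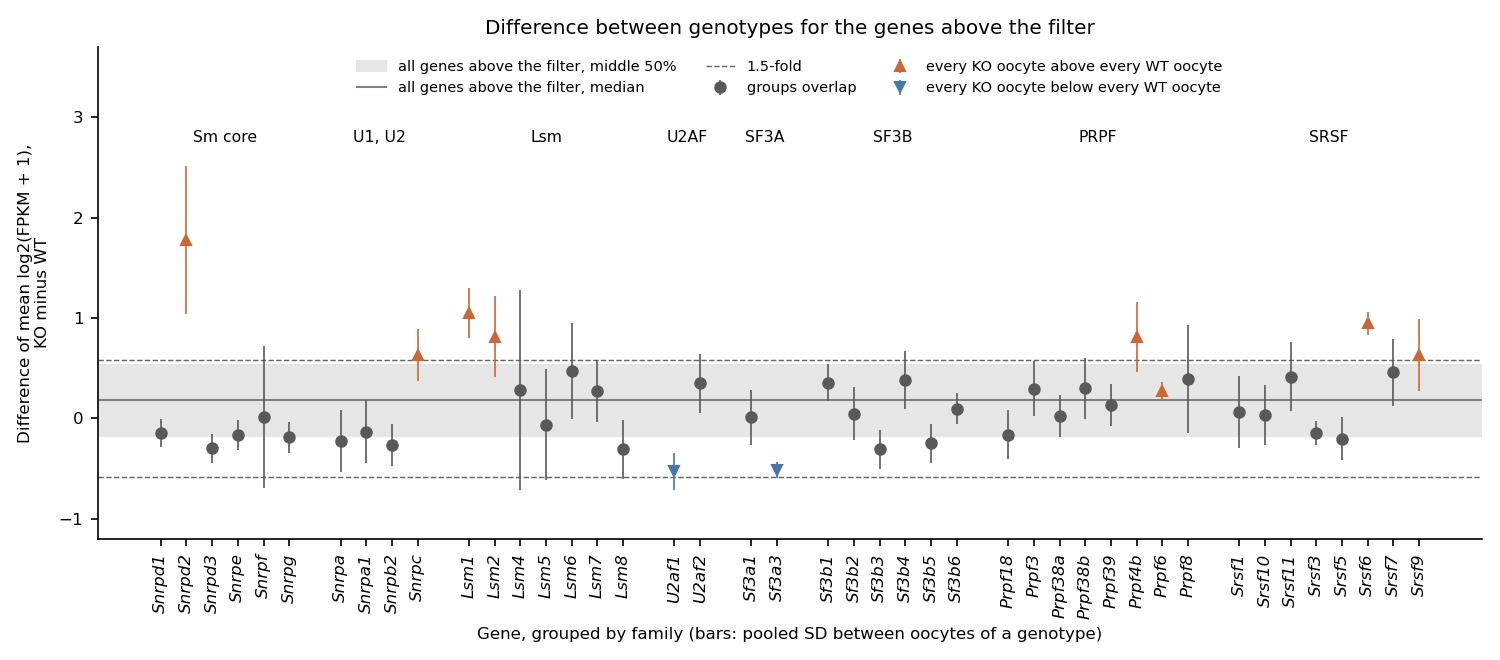
KO minus WT mean of log2(FPKM + 1) for 43 of the 44 genes above the filter, grouped by family, with bars for the pooled SD between oocytes of a genotype. The grey band and line give the middle 50% and the median of all 8033 genes above the filter. Snrpd2 stands highest at 1.78, and U2af1 (-0.53) and Sf3a3 (-0.52) stand lowest.

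Promoter sequence was looked at as a feature that the choice by name did not use. RefSeq windows of 300 bases (250 before and 50 after a gene's start, build GRCm38.p6) were matched by symbol for 46 of the 57 members. The ETS core CCGGAAG was present on either strand in 41.7% of the 36 windows of members above the filter, in 19.3% of the 5949 windows of all genes above the filter and in 9.12% of all 27025 windows. The YY1 core ATGGCGG was in 22.2%, 8.74% and 4.19% of them. The GC box GGGCGG (72.2%, 62.7% and 35.9%), the CCAAT box CCAAT (41.7%, 40.3% and 37.9%), the TATA box TATAAA (8.33%, 7.53% and 14.2%) and the E-box CACGTG (8.33%, 10.4% and 7.24%) were nearer to the shares of other expressed genes. The median number of CG dinucleotides was 23.5 in members above the filter and 21 in all genes above it. A match is a description of the letters in the window and not evidence of a bound factor. The windows printed here, 5′ to 3′ on the gene's strand with these motifs in capitals, are those of 2 genes higher in KO oocytes (Snrpd2 and Srsf6), the 2 genes lower without overlap (U2af1 and Sf3a3), and Sf3a1, which holds both the ETS and the YY1 core.
Snrpd2 (chr7:19149588-19149887, plus strand): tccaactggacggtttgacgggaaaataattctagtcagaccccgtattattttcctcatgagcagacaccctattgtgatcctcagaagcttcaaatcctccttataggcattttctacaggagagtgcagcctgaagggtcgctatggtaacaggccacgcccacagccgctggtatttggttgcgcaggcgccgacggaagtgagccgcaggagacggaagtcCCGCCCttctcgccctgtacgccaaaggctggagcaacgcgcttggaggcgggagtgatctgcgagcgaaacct
Srsf6 (chr2:162931258-162931557, plus strand): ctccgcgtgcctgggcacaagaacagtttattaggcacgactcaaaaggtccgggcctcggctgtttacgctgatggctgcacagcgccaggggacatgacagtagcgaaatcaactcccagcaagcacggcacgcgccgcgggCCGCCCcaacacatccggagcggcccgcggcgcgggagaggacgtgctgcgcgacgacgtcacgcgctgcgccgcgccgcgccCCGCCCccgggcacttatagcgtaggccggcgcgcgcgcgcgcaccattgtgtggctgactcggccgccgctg
U2af1 (chr17:31658715-31659014, minus strand): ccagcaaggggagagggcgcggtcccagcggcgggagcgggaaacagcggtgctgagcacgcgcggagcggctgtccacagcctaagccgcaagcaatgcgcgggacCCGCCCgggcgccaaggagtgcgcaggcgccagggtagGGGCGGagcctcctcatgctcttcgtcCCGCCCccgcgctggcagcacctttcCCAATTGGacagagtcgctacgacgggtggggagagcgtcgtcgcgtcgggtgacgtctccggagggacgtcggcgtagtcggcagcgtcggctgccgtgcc
Sf3a3 (chr4:124714611-124714910, plus strand): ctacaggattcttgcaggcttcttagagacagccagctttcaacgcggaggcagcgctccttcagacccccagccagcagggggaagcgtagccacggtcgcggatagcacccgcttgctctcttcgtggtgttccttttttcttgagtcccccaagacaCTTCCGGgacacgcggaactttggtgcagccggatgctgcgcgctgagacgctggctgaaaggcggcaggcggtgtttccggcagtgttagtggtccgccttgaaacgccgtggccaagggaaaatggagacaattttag
Sf3a1 (chr11:4160104-4160403, plus strand): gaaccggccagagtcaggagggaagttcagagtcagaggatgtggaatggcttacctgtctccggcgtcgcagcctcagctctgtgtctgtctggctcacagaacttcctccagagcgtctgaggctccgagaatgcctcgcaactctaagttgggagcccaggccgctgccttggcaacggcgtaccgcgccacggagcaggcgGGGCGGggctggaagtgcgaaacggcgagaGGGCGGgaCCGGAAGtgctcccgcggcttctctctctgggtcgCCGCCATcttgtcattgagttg
No motif was in all of the first 4 windows. Snrpd2 and Srsf6 had the GC box, 1 and 2 matches, and so did U2af1, with 3. Sf3a3 had 1 ETS core and no GC box. The window of Srsf6 held 45 CG dinucleotides and that of U2af1 40, against 20 in Snrpd2 and 22 in Sf3a3.

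The Sm core genes, whose 7 products close into a ring around the U1, U2, U4 and U5 small RNAs, were present at very unequal FPKM. Here and below, levels of different genes depend on the gene lengths behind the deposited FPKM, which were not checked. In WT1, Snrpe and Snrpg had 5213 and 5200 estimated reads but 96.1 and 313 FPKM. Their exon lengths in the annotation used here are 1372 and 1570 bases. Snrpd3 (SmD3) was the most abundant member. It was at 538 FPKM in WT1, 536 in WT2 and 436 in WT4, and at 438, 433, 394 and 367 in KO1 to KO4. The lowest WT oocyte lay just under the highest KO oocyte, so the groups overlapped. Snrpd1 (SmD1) was at 440.3, 418 and 390.4 FPKM in the WT oocytes and at 443, 356, 369.7 and 343 in the KO oocytes, where KO1 was the highest of all 7. Snrpg (SmG) was at 288 to 334 FPKM in WT and 232 to 306 in KO, and Snrpe (SmE) at 82.4 to 96.1 and 71.8 to 94.8. These 4 differed by -0.30 (Snrpd3), -0.14 (Snrpd1), -0.19 (Snrpg) and -0.16 (Snrpe) on the log2 scale. With median-ratio scaling all 4 were further below 0 (-0.54, -0.39, -0.43 and -0.41), and with quantile normalization Snrpd3, Snrpd1 and Snrpg turned to 0.0044, 0.17 and 0.05 while Snrpe stayed at -0.16.

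The other Sm genes were far less abundant than their partners in the ring. Snrpd2, whose product SmD2 pairs with SmD1, was at 5.77, 4.48 and 2.06 FPKM in WT1, WT2 and WT4 and at 9.96, 21.7, 30.3 and 8.71 in KO1 to KO4. All KO oocytes were above all WT oocytes, but they parted into a lower pair (KO1 and KO4) and a higher pair (KO2 and KO3). The means were 4.10 ± 1.88 and 17.7 ± 10.3 FPKM, which is 4.30-fold, and the difference of 1.78 was the largest of the 44 genes. It lay between 1.44 (without WT4) and 2.03 (without KO4) when 1 oocyte was left out. The values rest on 72, 66 and 23 reads in WT and on 118, 316, 581 and 138 in KO oocytes. Of the 50-base words of its transcripts, 6.3% also occur in other genes, mostly in Gm10120, so a part of its reads cannot be assigned with certainty. Snrpd1 transcripts stood at 119.6 ± 61.0 times the Snrpd2 level in WT and 28.1 ± 16.2 times in KO oocytes, a ratio taken within each oocyte that linear scaling leaves as it is.

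Snrpf (SmF) was at 12.4, 5.22 and 4.53 FPKM in WT and 5.05, 3.37, 11.2 and 10.5 in KO oocytes, with full overlap. An exon of Ccdc38 on the opposite strand covers 65.9% of its exon length, and no source used here says that the counting used strand, so the Snrpf level is uncertain. Snrpb, which encodes SmB, was below the filter. It had 7, 61 and 10 reads in WT and 1, 91, 11 and 81 in KO oocytes, or 0.02 to 1.21 FPKM. No other gene of the table overlaps its exons and 0.0% of its 50-base words occur elsewhere, after rounding. Snrpd3 and Snrpb thus differed in level by 357 times (KO2) or more in every oocyte, and their products enter the ring as a pair. The Snrpb relative Snrpn, left out by the naming rule, was not examined.

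**Figure D2:**
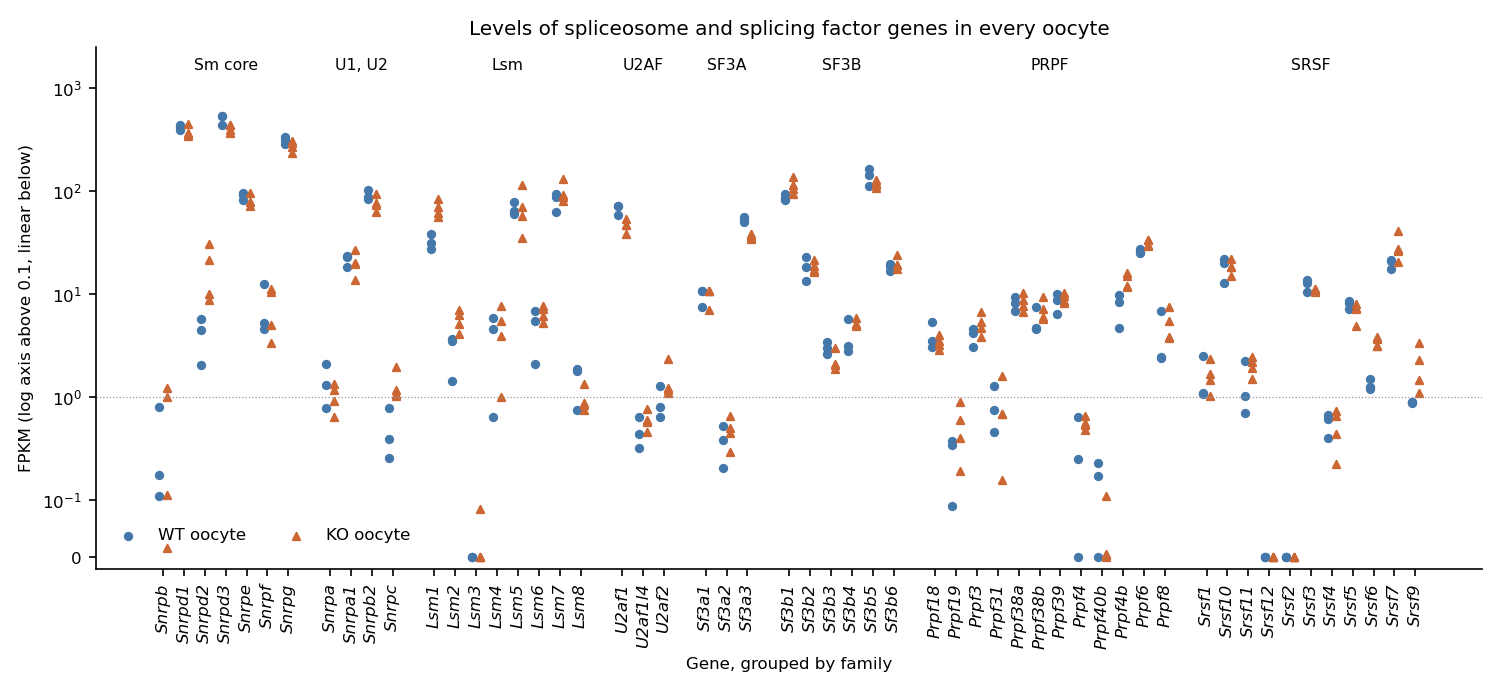
FPKM of the members described by name, pseudogenes left out, in every oocyte (circles WT, triangles KO), grouped by family, on an axis that is logarithmic above 0.1 and linear below. Members of a single complex lie far apart, as with Snrpd3 (367 to 538 FPKM) and Snrpb (0.02 to 1.21 FPKM).

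Of the members particular to U1 and U2, the U2 genes were well expressed and the U1 genes close to the filter. Another U1 gene, Snrnp70, lies outside the naming rule and was well above these U1 members. It was at 29.0 ± 7.48 FPKM in WT and 25.6 ± 6.51 in KO, with overlap. Snrpb2 was at 91.0 ± 10.7 FPKM in WT and 76.2 ± 12.8 in KO, and Snrpa1, its partner on U2, at 18.2 to 23.7 and 13.6 to 26.7, both with overlap. Snrpa, which binds a stem-loop of U1, was at 1.40 ± 0.664 and 1.02 ± 0.303 FPKM, and 327 of its 2964 exon bases are overlapped by BC024978. Snrpc, which helps U1 hold the 5′ splice site, was at 0.258, 0.792 and 0.394 FPKM in WT and at 1.03, 1.95, 1.16 and 1.06 in KO oocytes. The KO oocytes were all above the WT oocytes, and KO2 stood apart from the other 3. As no WT oocyte reached 1 FPKM, Snrpc passed the filter through KO oocytes alone. The difference of 0.63 was under 1.5-fold without WT1 (0.52), without KO2 (0.51) and with either other scaling (0.51 and 0.42), and 6.1% of its 50-base words occur in other genes.

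Lsm proteins form 2 rings that share 6 subunits. Lsm1 to Lsm7 act in the cytoplasm, where they bind the shortened tail of mRNA and start decapping, and Lsm2 to Lsm8 bind U6 small RNA in the nucleus. Lsm1, the subunit found only in the cytoplasmic ring, was at 38.2, 31.2 and 27.4 FPKM in WT1, WT2 and WT4 and at 55.7, 70.1, 84.6 and 60.98 in KO1 to KO4. The lowest KO oocyte was well above the highest WT oocyte. The means of 32.2 ± 5.50 and 67.9 ± 12.6 FPKM were 2.10-fold apart. The log2 difference of 1.05 was 0.81 with median-ratio scaling and 0.99 with quantile normalization, it was 0.94 to 1.17 when 1 oocyte was left out, and no 50-base word of Lsm1 occurs in another gene. Lsm8, the subunit found only in the nuclear ring, was at 1.86, 0.743 and 1.78 FPKM in WT and 0.871, 1.35, 0.840 and 0.746 in KO oocytes, which overlapped. The ratio of Lsm1 to Lsm8 within an oocyte, examined after their values were seen, was 20.5, 41.9 and 15.4 in WT and 64.0, 51.8, 100.7 and 81.7 in KO oocytes, without overlap.

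Among the shared Lsm subunits, Lsm2 was higher in KO oocytes, at 5.16, 6.23, 6.99 and 4.08 FPKM against 3.47, 1.43 and 3.68 in WT. The gap between the groups was narrow, from 3.68 in WT4 to 4.08 in KO4. Its difference of 0.82 was 0.51 without WT2 and 0.57 with quantile normalization, both under 1.5-fold. Lsm7 (80.7 ± 15.9 FPKM in WT and 98.1 ± 23.2 in KO) and Lsm5 (66.9 ± 9.57 and 69.4 ± 33.4) were the most abundant of the family and overlapped, and 14.3% and 21% of their 50-base words occur in other genes. Lsm4 (3.72 ± 2.73 and 4.51 ± 2.79) and Lsm6 (2.10 to 6.88 and 5.20 to 7.62) overlapped as well, with WT2 the lowest WT oocyte for both. Lsm3, part of both rings, was listed at 0 in 6 oocytes and at 0.0852 FPKM in KO2. Of its 50-base words, 4.6% occur in another gene, and whether its reads were discarded was not tested.

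Of the 44 members above the filter, U2af1 and Sf3a3 were the 2 that were lower in KO oocytes without overlap. Among all genes above the filter, 8.94% were so. U2af1, the small subunit of U2AF that contacts the AG at the intron's end, was at 59.2, 71.4 and 71.1 FPKM in WT1, WT2 and WT4 and at 54.0, 46.6, 46.99 and 38.4 in KO1 to KO4. The groups were separated, with WT1 and KO1 nearest to each other. The mean was 1.45-fold higher in WT (67.2 ± 6.98 against 46.5 ± 6.38), and 21.7% of the 50-base words of U2af1 occur in other genes. Sf3a3, a subunit of SF3A, was at 50.6, 50.6 and 56.2 FPKM in WT and at 37.6, 38.5, 34.1 and 35.5 in KO oocytes. Its spread within a genotype was the smallest of the 10 separated genes (pooled SD 0.08 on the log2 scale), and the WT mean was 1.44-fold higher (52.5 ± 3.23 against 36.4 ± 1.98). With median-ratio scaling both passed 1.5-fold, at -0.77 for U2af1 and -0.75 for Sf3a3, and with quantile normalization they were at -0.56 and -0.58. With 1 oocyte left out, U2af1 was at -0.44 (without KO4) to -0.62 (without WT1). It passed 1.5-fold only without WT1 or without KO1 (-0.60). Sf3a3 was at -0.47 (without WT4) to -0.54 (without KO2), under 1.5-fold whichever oocyte was left out.

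Their partners were far less abundant. U2af2, the large subunit that binds the polypyrimidine tract, was at 0.912 ± 0.340 FPKM in WT and 1.46 ± 0.591 in KO, with overlap. U2af1 transcripts stood at 81.9 ± 33.1 times the U2af2 level in WT and at 34.9 ± 10.6 times in KO oocytes. Sf3a1 was at 9.69 ± 1.85 and 9.79 ± 1.91 FPKM, and Sf3a2 was below the filter (0.373 ± 0.162 and 0.473 ± 0.147). U2af1l4, a relative of U2af1, was also below it, at 0.466 ± 0.161 FPKM in WT and 0.595 ± 0.128 in KO.

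All 6 Sf3b genes were above the filter and all 6 overlapped between genotypes. None was past 1.5-fold, where 22.6% of all genes were higher and 7.92% lower. Sf3b5, a small structural subunit, was the most abundant (140.3 ± 26.4 FPKM in WT and 117 ± 8.54 in KO). Sf3b1, the scaffold that cradles the branch point helix, was at 94.0, 82.1 and 85.6 FPKM in WT and 93.6, 106, 116 and 136 in KO oocytes. KO1 was just below WT1, and the other KO oocytes were above all WT oocytes. Its difference was 0.36, and 0.11 with median-ratio scaling. Sf3b6, which sits at the branch point (18.4 ± 1.42 and 19.8 ± 2.70), and Sf3b2 (18.2 ± 4.74 and 18.5 ± 2.26) were at similar means in both genotypes. Sf3b4 (3.92 ± 1.61 and 5.21 ± 0.398) and Sf3b3 (3.01 ± 0.416 and 2.25 ± 0.515) were the least abundant, and 45.3% of the 50-base words of Sf3b4 occur in other genes.

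**Figure D3:**
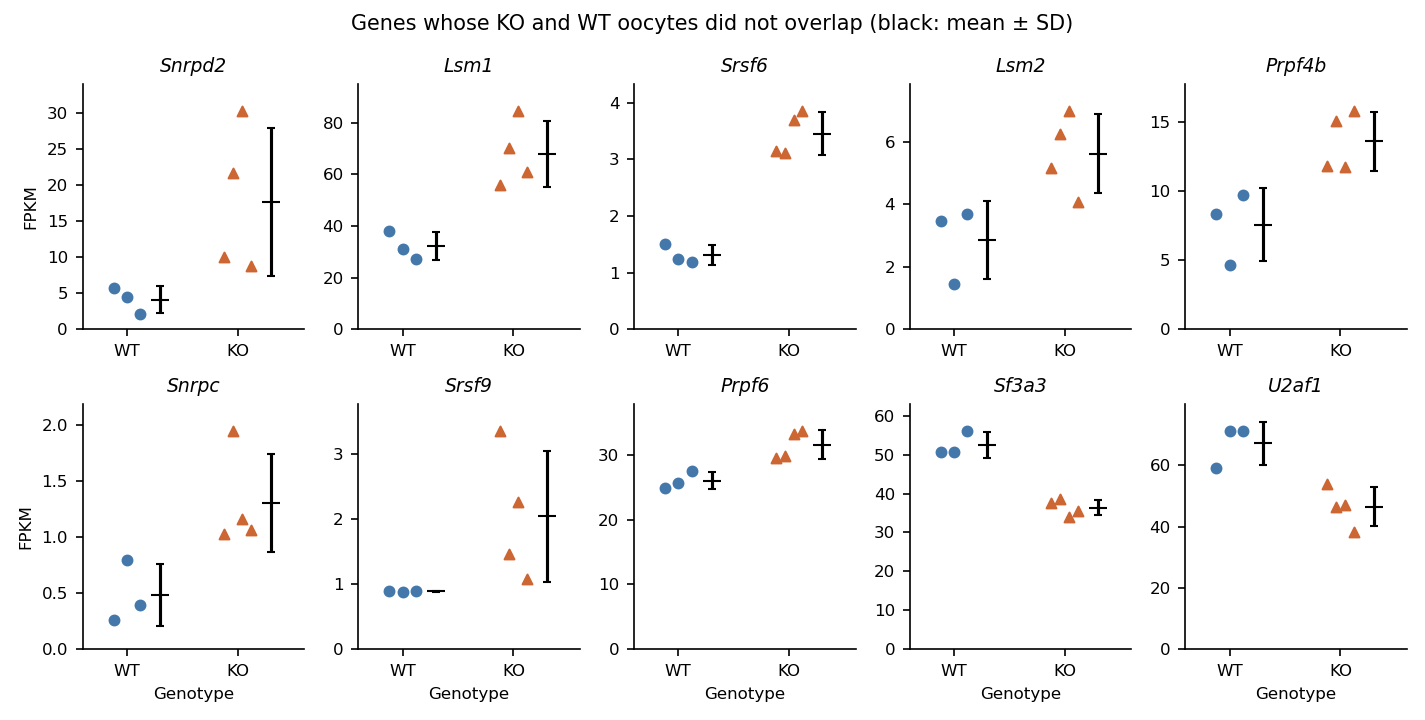
FPKM in each WT (circles) and KO (triangles) oocyte for the 10 members whose genotypes did not overlap, with the mean ± SD in black. Of these, 8 were higher in KO and 2 lower, where 18.9% and 8.94% of all genes above the filter were so. Lsm1 (27.4 to 38.2 against 55.7 to 84.6) and Srsf6 (1.19 to 1.504 against 3.12 to 3.86) show a wide gap between the groups, and Lsm2 and Srsf9 a narrow one.

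Of the 13 Prpf genes, 9 were above the filter. Over 1.5-fold higher was 1 of them (11.1%) and none was lower, beside 22.6% and 7.92% of all genes. Prpf4b, a kinase that phosphorylates spliceosomal proteins, was at 8.39, 4.63 and 9.71 FPKM in WT and at 11.9, 15.1, 11.7 and 15.8 in KO oocytes. All KO oocytes were above all WT oocytes, and WT2 was the lowest. Without WT2 its difference of 0.81 was 0.53, under 1.5-fold. Prpf6, which bridges U5 with U4/U6, was also separated, at 24.9, 25.7 and 27.5 against 29.6, 29.9, 33.3 and 33.8 FPKM, but the shift was small. Its difference of 0.27 was 0.03 with median-ratio scaling and 0.15 with quantile normalization.

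Prpf8, the largest protein at the catalytic centre, was at 6.88, 2.44 and 2.41 FPKM in WT and 5.46, 7.42, 3.71 and 3.82 in KO oocytes, with WT1 among the KO values. The range of Prpf3, Prpf18, Prpf38a, Prpf38b and Prpf39 ran from 3.39 ± 0.457 FPKM for Prpf18 in KO to 9.14 ± 0.876 for Prpf39 in KO, and all overlapped. Below the filter were Prpf19 (4 to 61 reads per oocyte), Prpf4 (0 to 100), Prpf31 (29 to 223) and Prpf40b (0 to 45). Prpf19 is the ubiquitin ligase that gives the Prp19 complex its name. Its mean was 0.271 ± 0.158 FPKM in WT and 0.524 ± 0.300 in KO, and 1.1% of its 50-base words occur elsewhere.

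SR protein genes were moderate to low in level, and 2 of the 8 above the filter (25%) were over 1.5-fold higher in KO oocytes, a share near the 22.6% of all genes. Srsf6, was at 1.504, 1.24 and 1.19 FPKM in WT1, WT2 and WT4 and at 3.14, 3.12, 3.703 and 3.86 in KO1 to KO4. Both groups were tight and the gap between them was wider than either. The means of 1.31 ± 0.169 and 3.46 ± 0.381 were 2.64-fold apart, from 410 reads in WT and 1750 in KO oocytes. The log2 difference of 0.95 was 0.90 to 1.00 when 1 oocyte was left out, 0.78 with median-ratio scaling and 0.69 with quantile normalization. It was 0.42 with a pseudocount of 5, which compresses differences at this level. No 50-base word of Srsf6 occurs in another gene. Srsf9 was at 0.895, 0.882 and 0.894 FPKM in WT and at 3.37, 1.47, 2.27 and 1.09 in KO oocytes. All KO oocytes were above WT. As no WT oocyte reached 1 FPKM, Srsf9 passed the filter through KO oocytes alone. Its difference of 0.63 was 0.44 without KO1 and 0.58 without KO3, and under 1.5-fold with both other scalings (0.49 and 0.39).

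The most abundant SR genes were Srsf7, at 21.2, 17.3 and 21.6 FPKM in WT and 20.3, 27.3, 26.0 and 41.3 in KO, and Srsf10 (18.3 ± 4.91 and 18.5 ± 2.81). For Srsf7 the highest value was in KO4 and KO1 lay among the WT oocytes. Its difference of 0.46 was 0.28 without KO4 and 0.61 without KO1. Srsf3 (12.3 ± 1.66 and 10.9 ± 0.289) and Srsf5 (7.94 ± 0.713 and 6.85 ± 1.31) overlapped, and so did Srsf11 (1.33 ± 0.824 and 2.01 ± 0.397). Srsf1, a general SR protein, was at 1.56 ± 0.815 and 1.63 ± 0.550 FPKM. Srsf4 was below the filter, and exons of Gm12992 on the opposite strand cover 43.0% of its length. Srsf2, which encodes SC35 and is used in most cells, was listed at 0 in all 7 oocytes, as was Srsf12. Mettl23 on the opposite strand overlaps 25.3% of the exon length of Srsf2, and whether reads there were discarded was not tested. The pseudogene Snrpert had 0 to 2 reads per oocyte, and Snrp1c-ps2 was at 0.

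On the deposited scale, differences were lower among abundant members than among rare ones, and the same held for all genes. The medians of the 9 members with a mean FPKM under 3, the 13 at 3 to 10 and the 10 at 10 to 30 were 0.35, 0.28 and 0.12, where all genes at those levels had 0.25, 0.23 and 0.14. The 7 members at 30 to 100 FPKM had a median of -0.16 beside 0.04 for all genes, and the 5 at 100 and over -0.19 beside -0.13. The median pooled SD between oocytes of a genotype was 0.27 over the 44 members and 0.32 over all genes, and in the bin of 100 FPKM and over it was 0.15 and 0.21. No member at 100 FPKM and over was past 1.5-fold, where 17.1% of all genes at that level were lower and 4.97% higher. At 30 to 100 FPKM, Lsm1 was the single member past 1.5-fold, where 15.2% of all genes were higher and 8.74% lower.

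**Figure D4:**
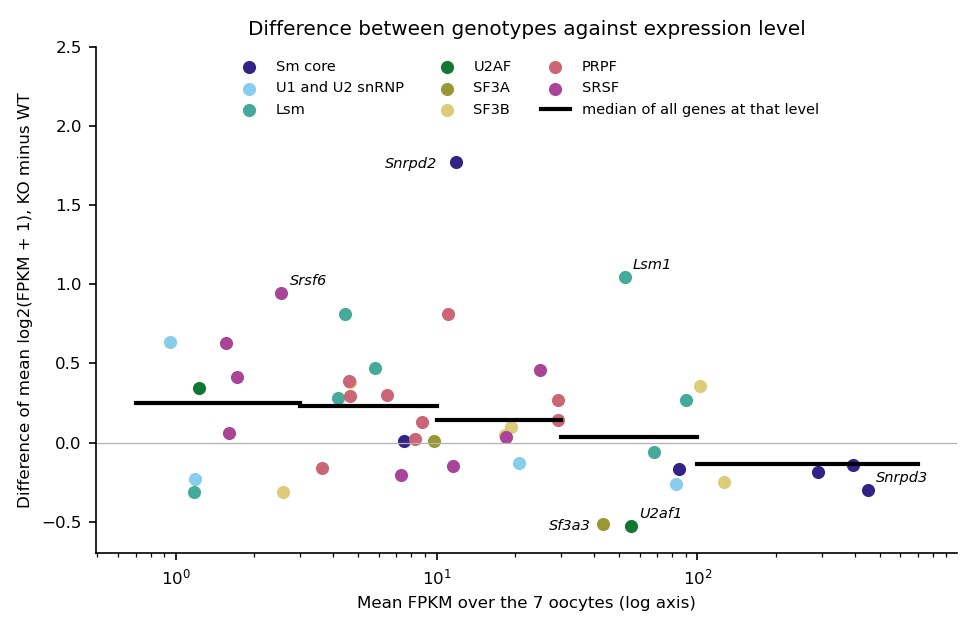
KO minus WT mean of log2(FPKM + 1) against mean FPKM over the 7 oocytes (log axis) for the 44 members above the filter, coloured by family. Black bars are the medians of all genes above the filter in 5 ranges of level, which run from 0.25 in the lowest to -0.13 in the highest, and Snrpd2 and Lsm1 lie far above them.

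Other genes of the splicing pathway, from 7 lists outside the naming rule, had a median difference of 0.11 over the 120 genes above the filter. Over 1.5-fold higher were 15 of them (12.5%) and 5 were lower (4.17%), beside 22.6% and 7.92% of all genes. The 30 tri-snRNP, snRNP and minor spliceosome genes had 4 higher and 1 lower, with a median of 0.03. Sart1, which recruits the tri-snRNP, was at 1.31 ± 0.546 FPKM in WT and 4.69 ± 1.49 in KO without overlap, and Puf60, a U2AF-like factor, at 4.97 ± 4.33 and 8.89 ± 3.50 with overlap. The 21 Prp19 complex and catalytic step genes had 2 higher and 1 lower, with a median of 0.15. Plrg1, a core Prp19 complex protein, was at 31.2 ± 7.91 and 18.6 ± 3.95 with overlap, and Smndc1, a Tudor domain factor, at 18.2 ± 4.00 and 28.1 ± 3.24 without. The 21 hnRNP genes had 3 higher, 0 lower and a median of 0.14. Hnrnpab was at 0.682 ± 0.496 and 4.03 ± 0.327, without overlap, and the difference of 1.62 was the largest of the 120 genes. Of its WT oocytes only WT1 (1.16 FPKM) reached 1 FPKM, so Hnrnpab needed the KO oocytes to pass the filter. Pcbp1, a poly(C)-binding protein, was at 38.9 ± 20.6 and 59.3 ± 29.3 with overlap.

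Exon junction complex genes, whose products mark spliced mRNA, were the list with the lowest median, -0.13 over 9 genes. Of the 9, 2 were lower (22.2%) and none higher, beside 7.92% and 22.6% of all genes. Magohb was at 24.2 ± 2.64 FPKM in WT and 12.2 ± 3.74 in KO and Sap18 at 19.5 ± 1.11 and 11.3 ± 3.24, both without overlap. Magoh, the near-identical partner gene of Magohb, was at 488 ± 41.3 and 445 ± 32.5, and reads of the pair may not be assigned with certainty. The 18 SR kinase and SR-like genes had 4 higher, 0 lower and a median of 0.10. Srek1, which modulates SR protein activity, was at 13.6 ± 1.84 and 25.6 ± 1.21 without overlap, and Sfswap at 1.36 ± 0.968 and 2.64 ± 1.30 with overlap. The 8 tissue-type regulators had 1 higher and 1 lower, with a median of 0.23, namely Khdrbs1 (SAM68, 1.62 ± 0.172 and 4.46 ± 1.20, without overlap) and the RNA stability factor Elavl1 (25.8 ± 10.2 and 14.5 ± 1.48, with overlap). The 13 snRNP assembly genes had 1 higher, 0 lower and a median of -0.08. Prmt5, which methylates Sm proteins, was at 0.911 ± 0.807 and 2.54 ± 1.28 with overlap, and Snupn, which carries snRNPs back to the nucleus, at 14.3 ± 2.28 and 9.38 ± 1.42 without. With median-ratio scaling the medians were -0.12, -0.08, -0.06, -0.37, -0.12, 0.04 and -0.25 for the lists in the order described, so the sign changed for 4 of the 7. Hnrnpab, Sart1, Khdrbs1, Srek1, Prmt5 and Magohb were past 1.5-fold whichever oocyte was left out, but with a pseudocount of 5 Khdrbs1 (0.51) and Prmt5 (0.34) were under it. Differences under 1.5-fold were given by leaving out WT2 for Puf60 (0.51), Pcbp1 (0.29), Sfswap (0.24), Smndc1 (0.51) and Elavl1 (-0.46), WT4 for Plrg1 (-0.55), Pcbp1 (0.53) and Smndc1 (0.55), and KO4 for Sap18 (-0.58), Smndc1 (0.54) and Sfswap (0.55). Pcbp1 was also under it without KO1 (0.31) and Sfswap without KO2 (0.47) or KO3 (0.58).

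**Figure D5:**
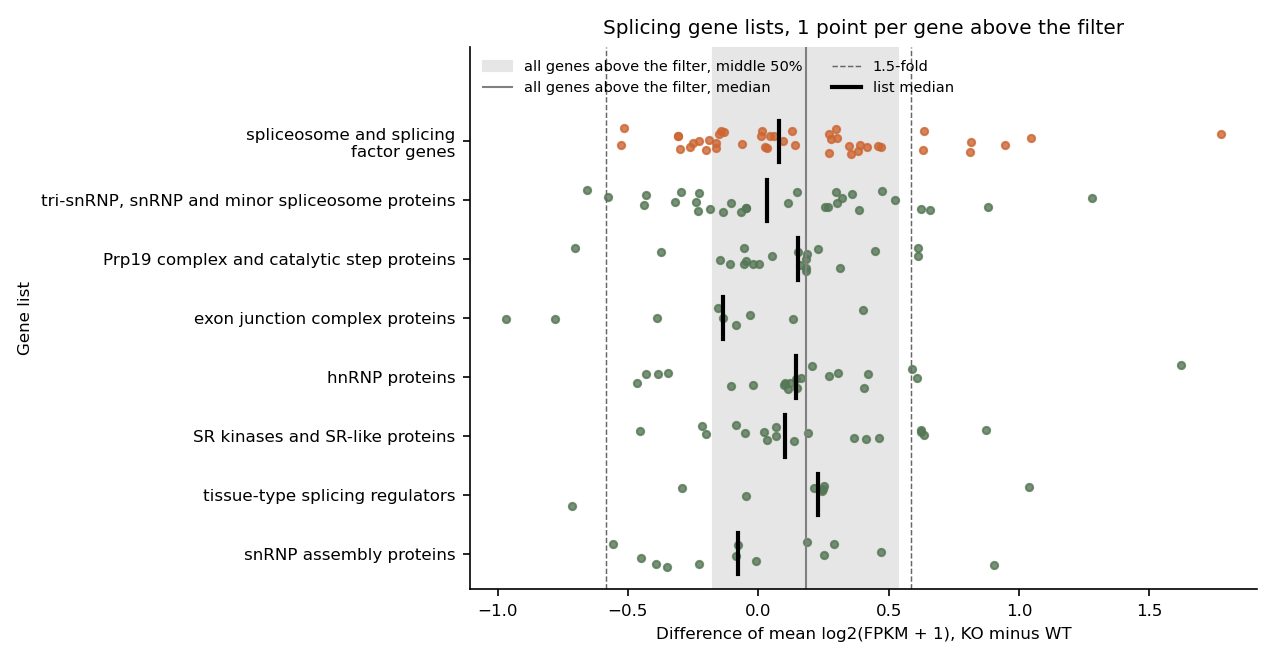
KO minus WT mean of log2(FPKM + 1), with 1 point per gene above the filter, for the spliceosome and splicing factor genes (top) and the 7 other splicing lists, with the list median in black. The grey band and line are the middle 50% and the median (0.18) of all genes above the filter, and list medians run from -0.13 (exon junction complex) to 0.23 (tissue-type regulators, where quantile normalization gave -0.03).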

How the data were processed

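RNA was measured in 7 single oocytes (3 WT and 4 KO). The authors deposited linear FPKM for each Ensembl gene. The submitters' processing notes name, with no roles, the mm9 build, HTSeq, edgeR 3.1.10, Bowtie2, Bowtie 0.12.8 and TopHat with TopHat2 2.0.2. Per the labels' protocols, cDNA was made and amplified with a SMARTer kit after ERCC spike-in RNA had been added. Spike-in values were not used here, so levels are relative to the other RNA of the oocyte.

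Symbols came from an Ensembl name table that named 87.4% of 37620 identifiers. Differences are means of log2(FPKM + 1) for genes that reached 1 FPKM in 3 or more libraries, computed with Python 3.11.15 and pandas 2.3.3. Read numbers were recovered as the smallest whole numbers, within a tolerance of 0.01, in the ratio of a gene's FPKM values. This gave whole numbers for all 15863 genes seen in at least 2 libraries, and says nothing for the 2437 seen in 1, which were set to 1 read. The recovery was tested on simulated data, where it did not return every gene exactly, so printed read numbers are estimates. Amplified reads carry no molecular identifiers here and do not each stand for a molecule. Exon overlap and shared 50-base words were taken from GENCODE M21, which may differ from the authors' annotation. The members and lists were chosen with earlier results of these data known. The naming rule took members past 1.5-fold without overlap, the 2 most abundant genes of each family, and the 2 genes of each other list with the largest difference. Other members are given as the range of their family, and 1 member is counted but not reported here by name. Magoh, Snrnp70 and the ratios between genes were added after their values were seen. Alternatives were other pseudocounts (0.1 and 5), filters (none, and a mean FPKM of at least 10), median-ratio scaling, quantile normalization and leaving out each oocyte.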

Additional observations from a re-analysis of the deposited data

Results flagged for a closer look

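In the 4 KO oocytes, 25 measures (the 23 named members, the members' share of FPKM and their median difference) were examined for an oocyte that stands apart, and chance alone gives about 1 in 20. Sf3a1 was at 6.93 FPKM in KO1, where the other KO oocytes were at 10.7 to 10.8. Snrpc was at 1.95 FPKM in KO2, where the others were at 1.03 to 1.16. U2af2 was at 2.34 FPKM in KO2, where the others were at 1.10 to 1.23.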

How the results depend on the processing

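No paired analysis was possible because the results come from no test, and the labels tie no oocyte number to an animal. The median difference of the members (0.08) was -0.0144 with a mean FPKM of at least 10, -0.14 with median-ratio scaling and 0.018 with quantile normalization, and 0.0805 (without WT2) to 0.18 (without WT1) with 1 oocyte left out. The count over 1.5-fold higher (7, beside 22.6% of all genes) was 2 with a pseudocount of 5 (7.86% of all genes). It was 3 with a mean FPKM of at least 10 (16.3%) and 4 with quantile normalization (14.1%). With 1 oocyte left out it was 5 (without WT2, 20% of all genes) to 10 (without WT4, 22.6%). Without WT1 it was 9, beside 28.9% of all genes, the largest of these shares. The count over 1.5-fold lower (0) was 2 with median-ratio scaling (Sf3a3 and U2af1, beside 14.2% of all genes) and 0 to 1 with 1 oocyte left out (7.69% to 9.13%). The median of the other splicing lists (0.11) was -0.0208 with a mean FPKM of at least 10, -0.11 with median-ratio scaling, -0.0574 with quantile normalization, and 0.048 (without WT4) to 0.11 with 1 oocyte left out. The cause of these shifts was not tested. Of the 7 higher genes, Snrpd2 and Lsm1 were past 1.5-fold under all 11 alternatives other than the filters, which cannot change a gene's own difference. Of 407 values of 37 named genes under these 11, 373 moved by less than 1 SD between oocytes, 34 by more, and no difference past 1.5-fold turned its sign. Differences of genes with few reads, such as Snrpb and Prpf19, have a wide counting error at these depths.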
